A study of Mus musculus with 2 samples.

Results

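The 10 genes described here encode or control the machinery by which a cell displays peptides on MHC class I: H2-K1, H2-D1, H2-T23, B2m, Tap1, Tap2, Tapbp, Psmb8, Psmb9 and Nlrc5. They were taken by symbol from the gene list that both libraries share, and all 10 were found among its 27998 genes. The data are droplet single-cell RNA counts from 2 libraries of the same group. That group is the myeloid fraction (live, CD45+ and CD11b+ by sorting) of a malignant pleural effusion, the tumour-laden fluid that gathers around the lungs. The effusion was raised in mice by placing 150000 LLC cells, which come from a Lewis lung carcinoma, in a volume of 100 µl between the pleural sheets, and it was collected on day 10. The labels name no untreated group and give no genotype, age or number of mice per library. The comparisons therefore lie between cell types of the effusion, and between the 2 libraries.

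Cells were assigned to types by the UMIs (unique molecules counted) of marker genes, none of which is among the 10 genes, and are called here by the gate they passed. Neutrophils carried S100a8, S100a9 and related genes. Monocytes carried Ly6c2, Vcan, Chil3 and Ccr2. C1q macrophages carried C1qa, C1qb and C1qc, and intermediate cells passed both of those gates. Resident macrophages carried Gata6, Alox15 and Prg4, genes of serous cavity macrophages. Dendritic cells carried Flt3, Zbtb46, Cd209a, Ccr7 or Fscn1. In library 1 the gates held 81 neutrophils, 265 monocytes, 378 intermediate cells, 145 C1q macrophages, 30 resident macrophages and 78 dendritic cells. In library 2 they held 1426, 339, 668, 69, 24 and 22 cells in the same order.

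MHC class I molecules consist of a heavy chain, such as those encoded by H2-K1 and H2-D1, and the invariant light chain beta-2 microglobulin, encoded by B2m. Peptides are cut in the cytosol by the proteasome, whose catalytic subunits are exchanged for Psmb8, Psmb9 and Psmb10 in the immunoproteasome. They are carried into the endoplasmic reticulum by the transporter of Tap1 and Tap2, and loaded with the help of tapasin, encoded by Tapbp. H2-T23 encodes Qa-1, a class Ib heavy chain that presents to NK and CD8+ T cell receptors, and Nlrc5 encodes the transactivator of class I genes. Interferons are known to induce most of these genes, and presentation by myeloid cells is among the ways in which tumour antigens can reach CD8+ T cells.

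The promoters of the 2 classical heavy chains and of B2m are shown because their letters differ from those of the antigen-processing genes. The sequences are RefSeq's for GRCm38.p6, 180 bases before the annotated start, 5' to 3' on the gene's own strand. Capitals mark matches on either strand to GGGNNTTCC (a kappa B element), GAANNGAAA (an interferon regulatory factor element), TGACG (the core of the X2 box) and ATTGG (the core of the Y box, a reversed CCAAT). H2-K1 lies on the minus strand at chr17:34000348-34000527, H2-D1 on the plus strand at chr17:35262914-35263093 and B2m on the plus strand at chr2:122147507-122147686.
H2-K1: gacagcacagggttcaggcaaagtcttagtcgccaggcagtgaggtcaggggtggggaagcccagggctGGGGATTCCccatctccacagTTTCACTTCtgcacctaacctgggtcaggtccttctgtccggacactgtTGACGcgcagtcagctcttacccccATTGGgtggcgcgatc
H2-D1: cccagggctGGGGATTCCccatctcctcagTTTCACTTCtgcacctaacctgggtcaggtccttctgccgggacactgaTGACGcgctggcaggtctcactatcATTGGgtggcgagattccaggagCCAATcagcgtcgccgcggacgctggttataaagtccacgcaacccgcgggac
B2m: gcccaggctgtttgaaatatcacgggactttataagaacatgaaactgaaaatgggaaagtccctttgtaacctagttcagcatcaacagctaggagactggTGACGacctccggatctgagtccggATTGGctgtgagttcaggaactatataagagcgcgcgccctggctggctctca

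In all 3 promoters a TGACG was followed on the same strand by an ATTGG after a gap of exactly 20 bases. Of 32851 RefSeq mouse promoter windows (300 bases each, from 250 before to 50 after the start), 0.849% held such a pair with a gap of 10 to 35 bases. GGGNNTTCC and GAANNGAAA were matched in H2-K1 and H2-D1, and in 5.82% and 7.52% of all windows. Each pattern has a fixed spacing, so a promoter without a match, such as that of B2m, may still hold an element of that kind. The B2m stretch holds gaaactgaaa and ggaaagtccc, which these patterns do not cover. The same table gave windows for 8 of the 10 genes, all but Tap2 and Nlrc5. Of these 8, only the 3 promoters shown held such a pair of TGACG and ATTGG. The window of the heavy chain H2-T23 matched ATTGG alone. A further pattern searched, TTCNNNGAA, was matched in Psmb8 only and in 8.3% of all windows. TGACG was found in 20.8% and ATTGG in 37.4% of windows, so single matches to these short cores are common.

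Tap1 and Psmb9 are transcribed away from each other, from starts that lie a short way apart. The stretch between the RefSeq starts, chr17:34187331-34187555 on the plus strand of GRCm38.p6, is shown because both genes share it. Capitals again mark matches to the X2 and Y cores.
Between Psmb9 and Tap1: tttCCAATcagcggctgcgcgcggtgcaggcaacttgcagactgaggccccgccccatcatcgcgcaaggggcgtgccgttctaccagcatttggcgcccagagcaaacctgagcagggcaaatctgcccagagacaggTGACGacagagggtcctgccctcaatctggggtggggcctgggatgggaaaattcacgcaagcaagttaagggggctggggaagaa

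In the GENCODE M21 annotation of the same build, 8 of the 10 genes lie on chromosome 17. Tapbp lies at chr17:33915899-33929292, H2-K1 at chr17:33996017-34000347, H2-D1 at chr17:35262730-35267499 and H2-T23 at chr17:36029773-36032855. Psmb9 (chr17:34181987-34187764), Tap1 (chr17:34187553-34197225), Psmb8 (chr17:34197721-34201454) and Tap2 (chr17:34203527-34216321) form a contiguous cluster. B2m lies at chr2:122147686-122153083 and Nlrc5 at chr8:94434356-94527272. The annotated ends of Tap1 and Psmb9 overlap on opposite strands, H2-T23 lies within the antisense gene A930015D03Rik, and Tapbp overlaps Zbtb22 on the same strand. H2-K1, H2-D1, H2-T23 and the H2-Q genes are near-identical copies in parts, and whether the counting used strand is not given in the sources used here, so how reads were split among them is uncertain.

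Library 1 held 1141 barcodes with a median of 9894 UMIs and library 2 held 2908 with a median of 1954. Of these, 1116 and 2847 had at least 300 genes and at most 10% mitochondrial UMIs and were kept, and 4 barcode sequences occurred in both libraries. The libraries stood apart in depth, cell types and sex-linked genes. Neutrophils made up 7.26% of kept cells in library 1 and 50.1% in library 2. That share cannot be separated from depth, because the shallowest cell of library 1 had 1999 UMIs and that of library 2 only 500. The median neutrophil of library 2, at 1334.5 UMIs, lay below the minimum of library 1, where the neutrophil median was 2189. Whether shallow neutrophils were missed in library 1 was not tested. Of cells with any sex-linked UMI, all 767 in library 1 had Y-linked UMIs without Xist, and 1298 of 1475 in library 2 had Xist alone. Library 2 also counted 2 antibody tags, BC2 and BC3, whose meaning the labels do not give, and each cell was put on the side of its larger tag: 1398 of its 1426 neutrophils fell on the BC3 side and 640 of its 668 intermediate cells on the BC2 side. Library, animals, their sex and depth cannot be told apart.

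The 2 classical heavy chains and the light chain were, among the 6 cell types tested, highest in resident macrophages in both libraries, and H2-D1 and B2m were the most abundant of the 10 messages in each of the 6 cell types. Levels are CPM, the UMIs of a gene per 1000000 UMIs of all cells of that type in that library. H2-K1 stood at 1622 CPM in resident macrophages of library 1 and 2735 in library 2, a mean of 2179 ± 787.1 (SD, n = 2). It stood at 1444 and 1741 CPM in dendritic cells and at 779.5 and 1674 in C1q macrophages. Monocytes (539.1 and 1108 CPM), intermediate cells (486.5 and 1152) and neutrophils (408.8 and 1239) were lowest. In both libraries the order ran from resident macrophages through dendritic cells to C1q macrophages, but no pair of neighbours in the mean order differed in edgeR's quasi-likelihood test with Benjamini-Hochberg adjustment (adjusted p from 0.157 to 1). Some types further apart did: resident macrophages were above intermediate cells (adjusted p = 0.00241, edgeR), monocytes (0.00333) and neutrophils (0.0188). Dendritic cells were likewise above intermediate cells (adjusted p = 0.00607, edgeR) and monocytes (0.00906), but did not pass against neutrophils (0.0765). Resident against C1q macrophages did not pass (0.0792). H2-D1 had the same leader, with 5200 and 6440 CPM in resident macrophages. It reached 2462 and 5792 CPM in neutrophils, 3716 and 4400 in dendritic cells, 2722 and 4082 in C1q macrophages, 2015 and 3430 in monocytes and 2007 and 3308 in intermediate cells. On the scale of the test, which is not that of CPM, H2-D1 was level between neutrophils and resident macrophages (log2 difference -0.015, SE 0.274, adjusted p = 0.975, edgeR). B2m was listed at 4175 and 5905 CPM in resident macrophages, at 3450 and 5632 in dendritic cells and at 2698 and 5232 in C1q macrophages. In neutrophils it ran from 1254 to 5007 CPM, in monocytes from 1455 to 4081 and in intermediate cells from 1422 to 4015.

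The balance between the 2 heavy chains depended on the cell type. In 3' end counting each UMI stands for 1 molecule, so no correction for gene length applies. Neutrophils held 6.02 H2-D1 UMIs for each H2-K1 UMI in library 1 (95% counting interval 4.8 to 7.62) and 4.68 in library 2 (4.49 to 4.87). Dendritic cells held 2.57 (2.41 to 2.75) and 2.53 (2.25 to 2.84), so the neutrophil ratio lay above the dendritic ratio in both libraries with intervals that did not overlap. C1q macrophages held 3.49 and 2.44, and resident macrophages 3.21 and 2.35. These intervals, and all others given for a single library, cover counting error only.

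By CPM, the transporter, tapasin and the immunoproteasome subunits followed another order, in which dendritic cells led the 6 types tested. The test uses another scale (TMM factors, given below). On that scale Tapbp was 0.05 higher on log2 in neutrophils than in dendritic cells (SE 0.27, adjusted p = 0.903, edgeR). Tap1, Tap2, Psmb8 and Psmb9 stayed lower in neutrophils, Tap2 by only -0.12. Tap1 stood at 218.7 and 645.6 CPM in dendritic cells, a mean of 432.1 ± 301.9 (SD, n = 2). It was lowest in resident macrophages, at 39.05 and 164.3 CPM. The other 4 types lay between 41.34 and 62.38 CPM in library 1 and between 318.7 and 380.7 CPM in library 2. The step from dendritic cells to neutrophils, next in the mean order, passed the test (log2 difference of neutrophils against dendritic cells -0.82, SE 0.32, adjusted p = 0.0452, edgeR), and no other step for Tap1 did; 45.8% of all genes differed between these types. Tap2 had 129.8 and 301.6 CPM in dendritic cells and between 27.56 and 52.51 in library 1 and between 130.2 and 284.0 in library 2 elsewhere. Tapbp had 243.7 and 458.7 CPM in dendritic cells and was lowest in C1q macrophages, at 91.09 and 305.8. Psmb8 stood at 1058 and 2183 CPM in dendritic cells and at 248.1 and 1152 in neutrophils, and Psmb9 at 355.3 and 798.5 in dendritic cells and 96.46 and 553.7 in neutrophils. Among neighbours in the mean order, the steps that passed were Psmb8 from dendritic cells to C1q macrophages (adjusted p = 0.0091, edgeR), Psmb9 from neutrophils to C1q macrophages (0.0112), Tap2 from neutrophils to monocytes (0.0169), and Tapbp (0.0191) and Psmb8 (0.0297) from neutrophils to resident macrophages, between which 46.8% of all genes differed. Of these, the Psmb9 step, the Tap2 step and the Psmb8 step from neutrophils to resident macrophages had the opposite order by CPM in library 1.

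H2-T23, the class Ib chain, and the transactivator Nlrc5 followed neither order. H2-T23 had 273.3 and 233.6 CPM in dendritic cells and 186.2 and 186.4 in resident macrophages, so in these 2 types the counting intervals of the library ratio included 1. It ran from 67.9 to 177.2 CPM in C1q macrophages and from 124.0 to 305.8 in neutrophils. Nlrc5 was barely detected in library 1, with 0 UMIs in 217698 in neutrophils (exact 95% upper limit 16.94 CPM). It had 1 UMI in resident macrophages, 7 in dendritic cells, 8 in monocytes, 16 in C1q macrophages and 26 in intermediate cells. In library 2 it ranged from 20.04 CPM in resident macrophages to 49.49 (111 UMIs) in neutrophils.

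**Figure D1:**
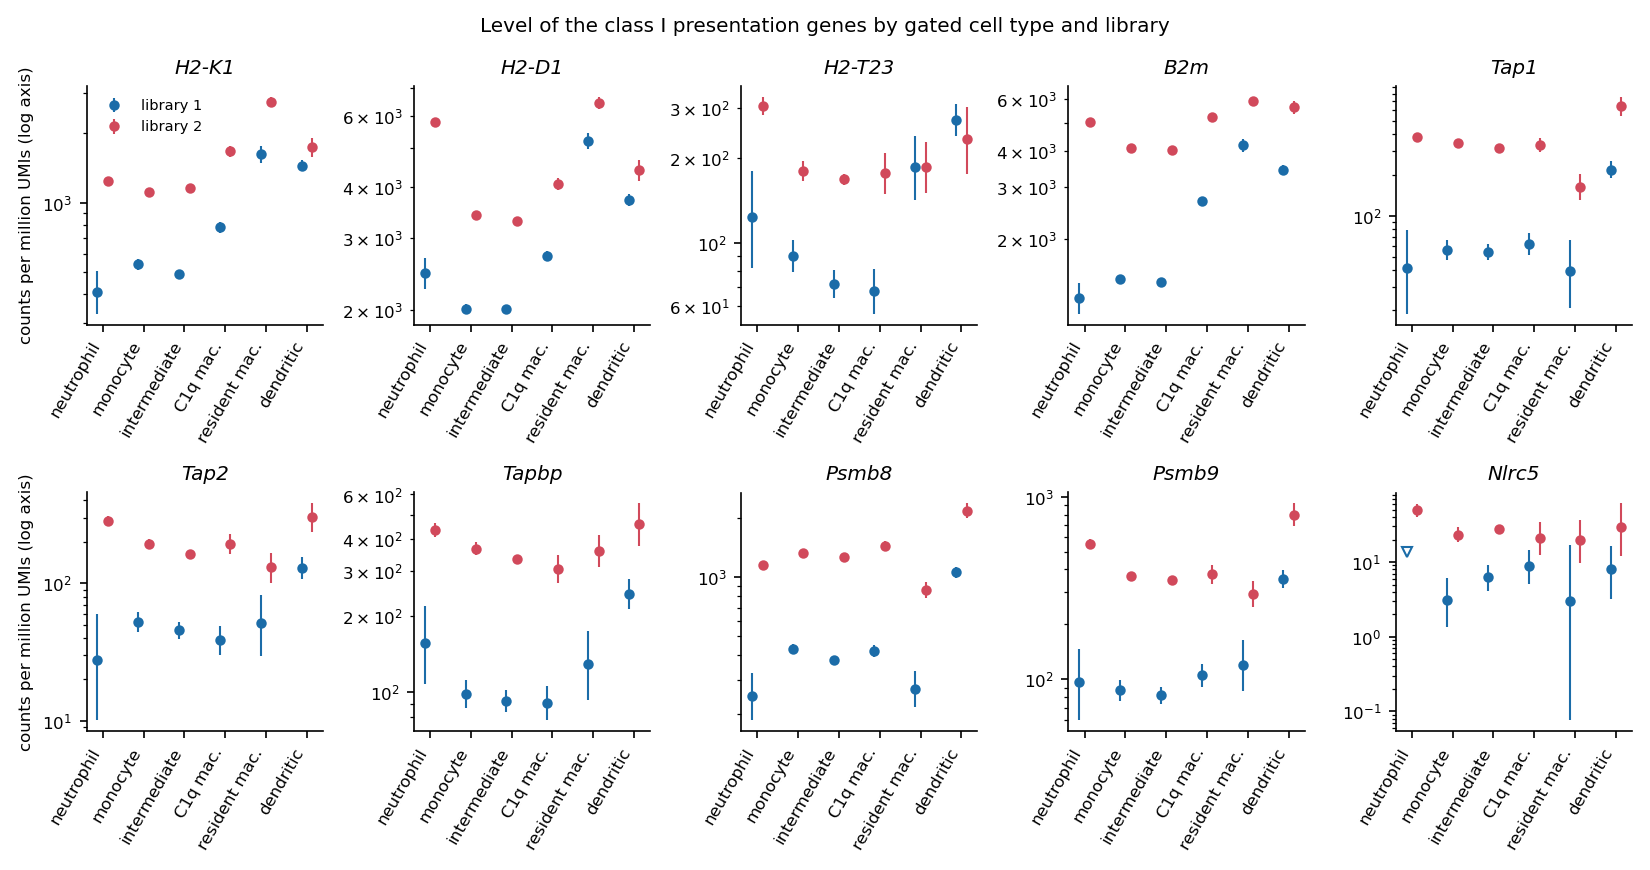
Level of each gene (CPM, log axis) in the 6 gated cell types; blue points are library 1, red points library 2, bars are exact 95% Poisson intervals, and the open triangle is the upper limit for a count of 0. Resident macrophages lead for H2-K1, H2-D1 and B2m, and dendritic cells lead for Tap1, Tap2, Tapbp, Psmb8 and Psmb9; red lies above blue in every panel apart from H2-T23 in dendritic cells and, at 186.2 and 186.4, resident macrophages.

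Dendritic cells carried more of the processing genes than C1q macrophages, while the classical heavy chains and B2m did not pass the adjusted threshold. In the edgeR test (sums per library and cell type, library as a block, 8968 genes tested), 6 of the 10 genes were higher and none lower. In this comparison 17.8% of all genes tested passed in either direction, and 9.43% were higher. The median log2 fold change was 1.13 over the 10 genes and -0.02 over all genes. Tap1 was higher by 1.52 on the log2 scale (SE 0.30, adjusted p = 0.00163), and Psmb9 by 1.56 (SE 0.29, adjusted p = 0.00119). H2-T23 was higher by 1.45, Tap2 by 1.29, Tapbp by 1.15 and Psmb8 by 1.10, with adjusted p from 0.00454 to 0.0101. H2-K1 (0.64, adjusted p = 0.157), H2-D1 (0.39, adjusted p = 0.369), B2m (0.35, adjusted p = 0.52) and Nlrc5 (0.29, adjusted p = 0.792) did not pass. In each library taken alone all 10 differences were positive, and they were larger in library 1 than in library 2 for 9 of the 10, for Tap1 2.01 against 0.90 and for H2-T23 2.21 against 0.35. The 6 called genes ran from 0.35 to 1.04 in library 2 alone. The dendritic gate held different cells in the 2 libraries: Cd209a stood at 288 CPM in library 1 and 55.2 in library 2, and Ccr7 at 187 and 799. Their part in the difference was not tested. Without the library block none of the 6 passed (0 of 10 genes with unadjusted p under 0.05).

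Neutrophils also held more of 6 of the 10 genes than C1q macrophages, in a comparison where 54.5% of all genes tested passed in either direction and 25.8% were higher. H2-T23 was higher by 1.51 on the log2 scale (SE 0.36, adjusted p = 0.00193) and Tapbp by 1.20 (SE 0.26, adjusted p = 0.00113). Both were higher in each library alone, by 1.27 and 1.46 for H2-T23 and by 1.18 and 1.18 for Tapbp. Tap2 (1.17, adjusted p = 0.00615), Psmb9 (0.99, adjusted p = 0.0112), Nlrc5 (1.41, adjusted p = 0.00488) and H2-D1 (0.78, adjusted p = 0.0236) passed as well. Without library 2 these 4 were much smaller or turned: Tap2 stood at -0.00 in library 1 and 1.22 in library 2, Psmb9 at 0.28 and 1.23, H2-D1 at 0.24 and 1.18, and Nlrc5 at -1.61 and 1.86. The 4 other genes did not pass: H2-K1 at -0.04, B2m at 0.06, Tap1 at 0.70 and Psmb8 at 0.11. Against monocytes 6 of the 10 genes were higher in neutrophils, where 52.6% of all genes passed in either direction and 25.5% were higher. They were Nlrc5 (1.77, SE 0.32, adjusted p = 0.000207), H2-T23 (1.27), Psmb9 (1.10), H2-D1 (1.09), Tapbp (0.97) and Tap2 (0.96); in library 1 alone Nlrc5 stood at -0.18, Tap2 at -0.47, Psmb9 at 0.52, H2-D1 at 0.64, H2-T23 at 0.83 and Tapbp at 1.02. The 2 neutrophil comparisons share the neutrophil sums.

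The neutrophil differences depend on scale. S100a8, S100a9 and the other neutrophil markers took 203000 CPM in neutrophils of library 1 and 144000 in library 2, and the TMM factors, which set the scale in the test, were 0.803 and 0.694 for neutrophils and 1.049 and 1.106 for C1q macrophages. With library totals in place of TMM, the median log2 fold change of all genes against C1q macrophages moved from -0.18 to -0.81, the share of calls that were higher went from 47.3% to 26.1%, and of the 10 genes 2 were higher (H2-T23 and Tapbp) and 1 lower (H2-K1, -0.61, adjusted p = 0.037). Against monocytes the share of higher calls went from 48.5% to 25.7%, with the median moving from -0.15 to -0.74, and 3 of the 10 genes passed, all higher. Without the library block, or with library 2 limited to its BC2 side (28 neutrophils), none of the 10 passed in either neutrophil comparison.

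Monocytes and intermediate cells could not be distinguished from C1q macrophages in any of the 10 genes. None passed in either comparison, in edgeR or DESeq2, and none had an unadjusted p under 0.05 in edgeR; of all genes 2.91% passed for monocytes and 0.803% for intermediate cells. The median log2 fold change was -0.06 for monocytes and -0.13 for intermediate cells, beside -0.01 over all genes in both. The differences furthest from 0 were those of B2m (-0.59, SE 0.32, and -0.63, SE 0.32) and H2-K1 (-0.53, SE 0.29, and -0.59, SE 0.29), below 0 in each library alone.

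None of the 10 genes passed the adjusted threshold between resident and C1q macrophages, where 8.35% of all genes did. H2-K1 stood at 0.88 (SE 0.30, adjusted p = 0.0792) and H2-D1 at 0.80 (SE 0.27, adjusted p = 0.0872), above 0 in both libraries (1.04 and 0.71 for H2-K1, 0.91 and 0.66 for H2-D1). Tap1 stood at -0.92 (SE 0.35, adjusted p = 0.132) and Psmb8 at -0.70 (SE 0.28, adjusted p = 0.157), below 0 in both libraries (-0.65 and -1.02 for Tap1, -0.65 and -0.75 for Psmb8). These 4 had an unadjusted p under 0.05. The other processing genes did not share a direction: Tapbp stood at 0.35, and Tap2 (-0.23) and Psmb9 (-0.14) were above 0 in library 1 and below 0 in library 2. With all gate cuts doubled H2-K1 (1.19, adjusted p = 0.000813), H2-D1 (1.02, adjusted p = 0.00218) and Tap1 (-0.85, adjusted p = 0.036) passed, and DESeq2 called H2-D1 alone (0.84, adjusted p = 0.0333).

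**Figure D2:**
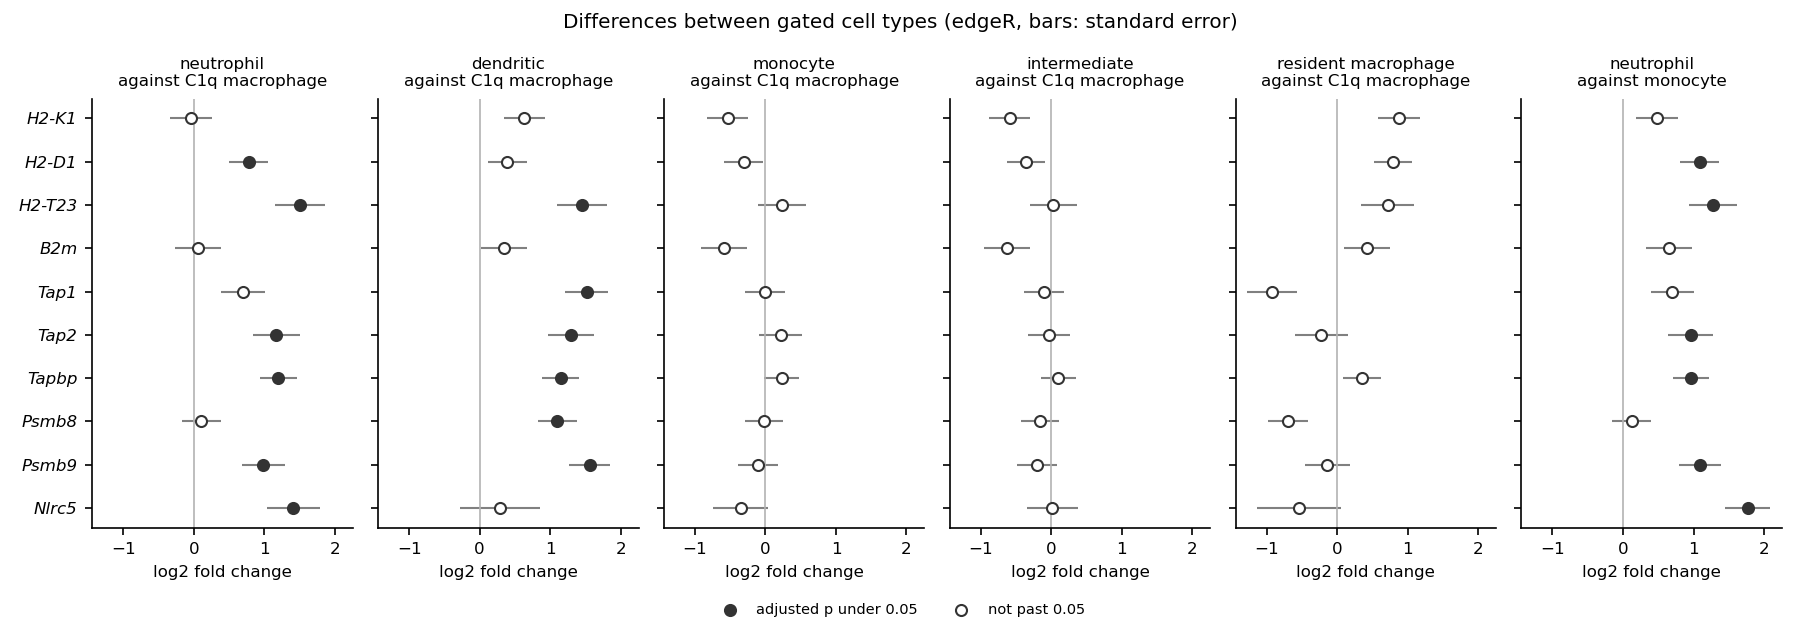
Log2 fold change of each gene (horizontal axis) in the 6 comparisons of gated cell types, with the standard error as a bar; filled points have an edgeR adjusted p under 0.05. Dendritic cells against C1q macrophages show 6 filled points above 0 and no gene below 0, and monocytes and intermediate cells show none filled.

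In each of the 6 cell types the 10 genes were higher in library 2, except H2-T23 in dendritic cells (0.855-fold) and in resident macrophages (1.00-fold). This compares 1 library with 1 library and has no test. The number of genes at least 2-fold higher in library 2 was 10 of 10 in neutrophils (beside 13% of all genes tested), 8 in monocytes (9.78%), 9 in intermediate cells (9.57%), 8 in C1q macrophages (13.3%), 6 in resident macrophages (16%) and 5 in dendritic cells (24.9%), and none of the 10 was 2-fold lower. The median log2 ratio over the 10 genes was 2.10 in neutrophils, 1.75 in monocytes, 1.79 in intermediate cells, 1.56 in C1q macrophages, 1.30 in resident macrophages and 0.98 in dendritic cells, while the median of all genes lay between -0.15 and 0.31. In dendritic cells 2 genes, not 5, stayed at least 2-fold higher when the TMM factors replaced the totals.

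For Tap1 the ratio was 9.21-fold in neutrophils (95% counting interval 4.83 to 20.2), 6.20 in monocytes (5.21 to 7.43), 5.86 in intermediate cells (5.12 to 6.74), 5.36 in C1q macrophages (4.29 to 6.74), 4.21 in resident macrophages (2.33 to 8.24) and 2.95 in dendritic cells (2.37 to 3.67). Psmb9 ran from 2.25-fold in dendritic cells to 5.74-fold in neutrophils, and Psmb8 from 2.06-fold to 4.64-fold in the same types. H2-D1 ran only from 1.18-fold in dendritic cells to 2.35-fold in neutrophils, and B2m from 1.41-fold in resident macrophages to 3.99-fold in neutrophils. For Nlrc5 in neutrophils, where library 1 had 0 UMIs, the ratio was 3.59 when taken against 3 UMIs. Its exact 95% lower limit was 2.872. Thus the transporter and the proteasome subunits had larger ratios between the libraries than H2-K1 and H2-D1 in each of the 6 types, as point values. Between the tag sides of library 2, Tap1 stood at 342.1 CPM in monocytes on the BC2 side and 411.5 on the BC3 side, and in neutrophils at 277 (28 cells) and 386.6. H2-D1 in resident macrophages stood at 5885 and 7355 CPM on the 2 sides, as far apart as the libraries were, and H2-T23 in dendritic cells at 284.5 and 192.3 (10 and 12 cells).

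The lists of interferon response genes were higher in the same library as the 10 genes. All 13 measured genes of the type I interferon list (such as Isg15, Ifit1 and Irf7) were at least 2-fold higher in library 2 in monocytes, intermediate cells and C1q macrophages, with median log2 ratios of 3.77, 3.66 and 3.99. In neutrophils 11 were so (median 2.93), in resident macrophages 11 (2.57) and in dendritic cells 12 (2.00). The 2 others in neutrophils, Ifi44 and Mx1, came out lower by this count, in which UMIs are added to both libraries. Neither was shown to be lower in library 2. Ifi44 stood at 0 CPM in neutrophils of both libraries, and Mx1 at 0 CPM in library 1 and 0.4458 in library 2. Of 16 genes tested of the interferon gamma list, 14 were at least 2-fold higher in monocytes, intermediate cells and C1q macrophages. In neutrophils, resident macrophages and dendritic cells 12 were. In neutrophils 2 again came out lower by this count, among them Cxcl9, which stood at 0 CPM in library 1 and 0.4458 in library 2. Gbp2, an interferon-induced GTPase, stood at 35.01 and 1231 CPM in monocytes and at 78.09 and 2418 in neutrophils. Irf1, an interferon-induced transcription factor, stood at 110.2 and 1070 CPM in neutrophils. Ifng itself was seen at 74.55 CPM in the 38 T or NK cells of library 2 and was at 0 UMIs in the 3 such cells of library 1; T or NK cells made up 1.33% of kept cells in library 2 and 0.269% in library 1. In the other direction the platelet list summed to 1840 CPM in C1q macrophages of library 1 and 69.9 in library 2, all of it Ppbp, with the 4 other platelet markers (Gp9, Itga2b, Gp1bb and Gp5) at 0 UMIs. The 5 erythroid markers summed to 74 and 6.24 CPM there, with Alas2 at 0 UMIs in both; tumour or epithelial markers stayed at or below 14.8 CPM in all 6 types. Their part in the difference between the libraries was not tested.

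T or NK cells and B cells did not share the pattern to the same extent. In T or NK cells H2-K1 stood at 1661 and 1795 CPM, B2m at 3830 and 4713, Psmb8 at 1338 and 1178 and Tap1 at 461.5 and 298.2, the library 1 values resting on 21669 UMIs of 3 cells. In B cells (27 and 13 cells) Tap1 stood at 79.37 and 270.8 CPM, Psmb8 at 497.9 and 726.8 and Tap2 at 79.37 and 85.5. These lymphocytes are few in a CD11b+ sort and entered no test.

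**Figure D3:**
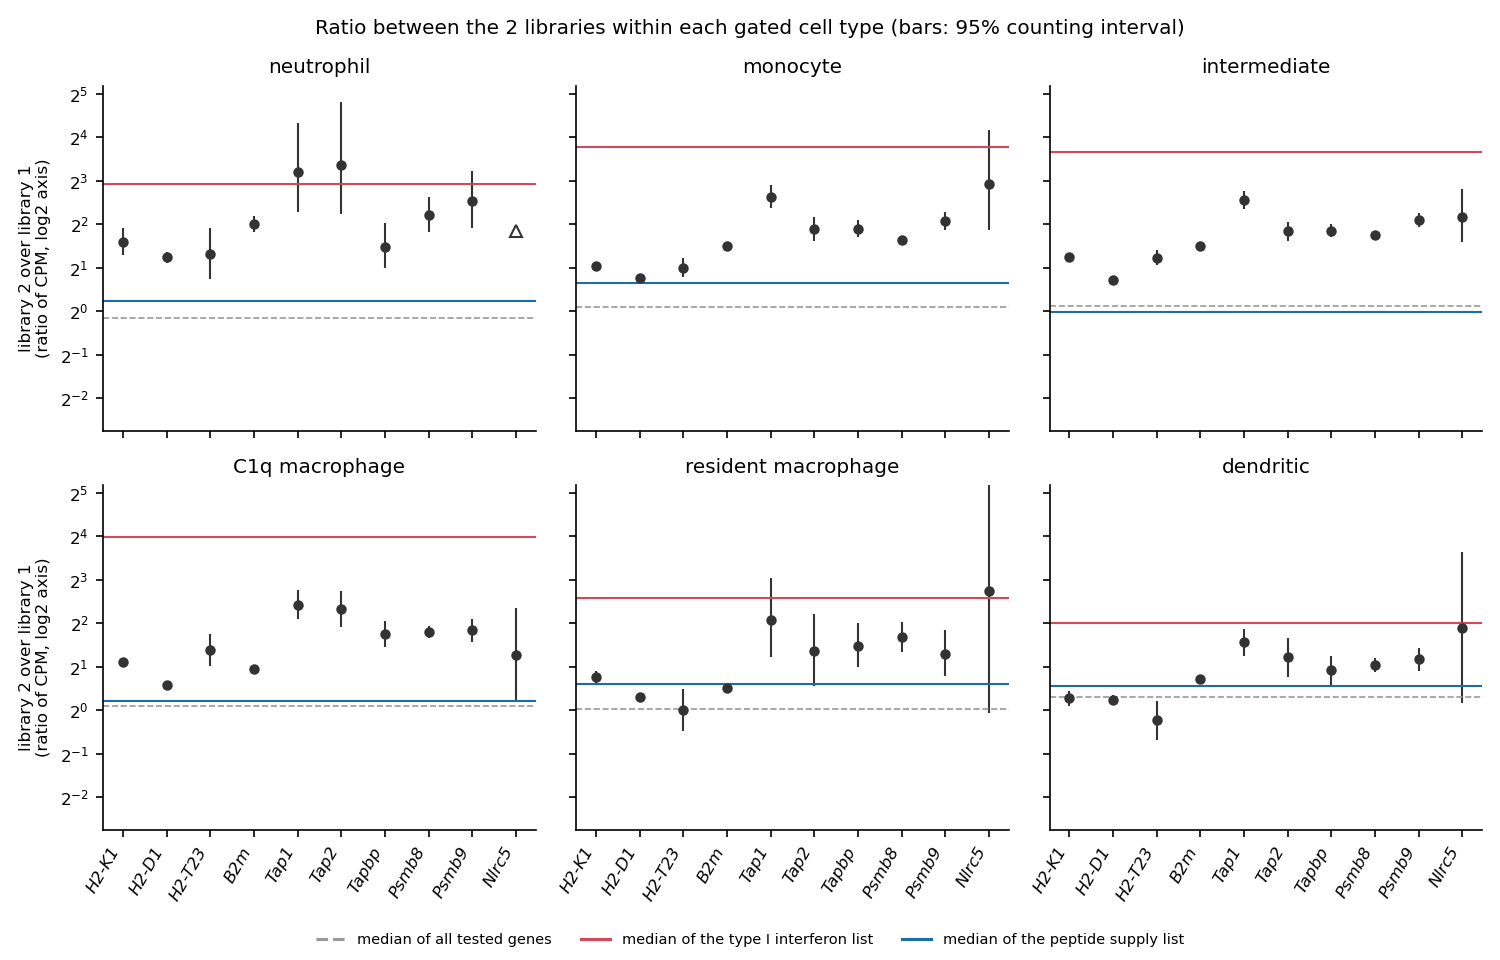
Ratio of CPM in library 2 over library 1 (log2 axis) for each gene, per gated cell type, with 95% counting intervals. The triangle is the Nlrc5 ratio taken against 3 UMIs, and the Nlrc5 interval in resident macrophages runs past the top. The grey dashed line is the median of all tested genes, the red line that of the type I interferon list and the blue line that of the peptide supply list. Points lie mostly between the grey and red lines, with Tap1 between 2.95 and 9.21 and H2-D1 between 1.18 and 2.35.

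The immunoproteasome subunits were set against the constitutive subunits they replace, which gives a ratio within each cell sum that library scaling cannot move. Psmb8 takes the place of Psmb5, Psmb9 that of Psmb6 and Psmb10 that of Psmb7. In C1q macrophages there were 1.2 Psmb8 UMIs per Psmb5 UMI in library 1 (95% counting interval 1.08 to 1.34) and 4.8 in library 2 (4.18 to 5.54). Dendritic cells held 5.31 (4.51 to 6.28) and 10.5 (7.82 to 14.4), above C1q macrophages, monocytes (1.32 and 4.96), intermediate cells (1.21 and 4.81) and resident macrophages (0.776 and 3.64) in both libraries. Neutrophils stood at 1.86 (1.16 to 3.03) in library 1 and 11.9 (10.4 to 13.7) in library 2.

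For Psmb9 over Psmb6 the constitutive subunit was the more abundant in macrophages and monocytes of library 1, at 0.25 in monocytes (0.215 to 0.29), 0.223 in intermediate cells, 0.284 in C1q macrophages and 0.345 in resident macrophages. In library 2 the 2 subunits were near parity in those types, from 1.03 to 1.15. Dendritic cells held 1.31 (1.1 to 1.55) and 2.65 (2.01 to 3.53), and neutrophils 1.5 (0.727 to 3.19) and 7.06 (6.02 to 8.31). Psmb10 over Psmb7 ran from 0.657 in resident macrophages to 1.18 in neutrophils in library 1 and from 1.71 to 3.8 in the same types in library 2. The constitutive subunits moved less between the libraries, and mostly downwards in library 2: over the 6 types the ratio of library 2 to library 1 ran from 0.679 (resident macrophages) to 1.04 (dendritic cells) for Psmb5, from 0.742 (resident macrophages) to 1.22 (neutrophils) for Psmb6 and from 0.924 to 1.09 for Psmb7. Psmb5 stood at 348.5 and 236.4 CPM in resident macrophages and at 133.2 and 96.75 in neutrophils, which enters the ratios there. Neutrophils had less of all 3 constitutive subunits than C1q macrophages (edgeR log2 fold change -0.97 for Psmb5, -1.67 for Psmb6 and -1.09 for Psmb7, all past the threshold), which enters their ratios.

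**Figure D4:**
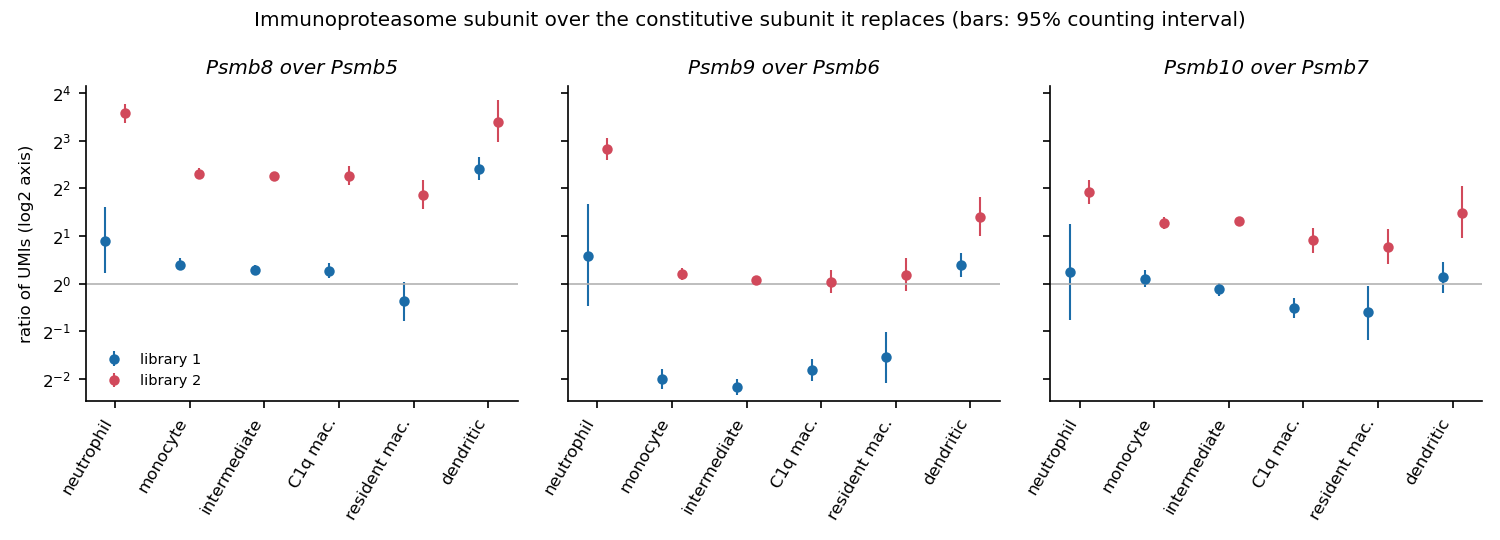
UMIs of each immunoproteasome subunit over those of the constitutive subunit it replaces (log2 axis) by gated cell type; blue is library 1, red library 2, bars are 95% counting intervals. Dendritic cells lie above monocytes, intermediate cells and both kinds of macrophage for Psmb8 over Psmb5 and Psmb9 over Psmb6 in both libraries.

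Within a library, the level of the 10 genes was also set against each cell's own interferon response. Monocytes with at least 3000 UMIs were ranked by their UMIs of the type I interferon list, and the top and bottom tercile compared within each library (88 cells a tercile in library 1, 97 in library 2). Cells are not replicates and the terciles are ranges of a score, so these are descriptions without a test. In library 1 Psmb9 stood at 57.2 CPM in the bottom and 131 in the top tercile, and in library 2 at 268 and 449. H2-T23 went from 55.9 to 135 and from 126 to 206, B2m from 1160 to 1890 and from 2990 to 4990, and Psmb8 from 329 to 532 and from 1080 to 1510. H2-D1 differed least among the well-counted genes, with ratios of 1.16 and 1.27, and the constitutive Psmb5, Psmb6 and Psmb7 stood between 0.832 and 1.05 in all 6 values. In intermediate cells (126 and 206 cells a tercile) Tap1 was 2.37-fold and 1.67-fold higher in the top tercile and H2-D1 1.12-fold and 1.23-fold. C1q macrophages (47 and 17 cells a tercile) differed by gene: Tap1 was 2.06-fold and 1.79-fold, Psmb9 2.04-fold and 1.76-fold and Tapbp 1.93-fold and 1.61-fold higher in the top tercile. Their H2-K1 (1.17 and 0.911), H2-D1 (1.02 and 0.953), H2-T23 (1.08 and 0.936) and B2m (1.42 and 1.01) ratios were at or below about 1 in library 2, where the constitutive Psmb7 stood at 1.42.

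The libraries covered different ranges of that score. The bottom tercile of monocytes in library 2 had a median of 5.59 type I interferon UMIs per 10000, above the 4.42 of the top tercile in library 1. Its Tap1 level (274 CPM) was also above that of the top tercile of library 1 (69.8), as were Psmb8 (1080 against 532), Psmb9 (268 against 131), B2m (2990 against 1890) and H2-K1 (897 against 617). The median depth of the 4 sets of monocytes lay between 8572 and 10149 UMIs.

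**Figure D5:**
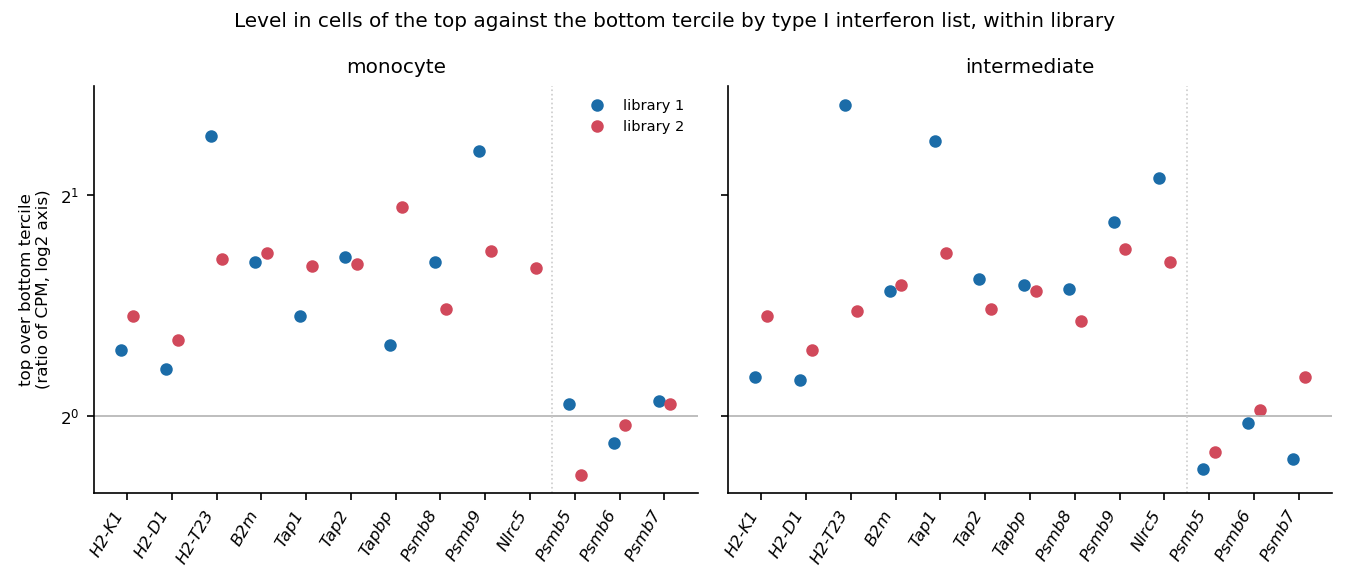
Ratio of CPM in the top over the bottom tercile of cells by type I interferon list UMIs (log2 axis), in monocytes and intermediate cells of library 1 (blue) and library 2 (red); the dotted line sets off the constitutive proteasome subunits. All plotted class I genes lie above 1 and the constitutive subunits between 0.832 and 1.13; Nlrc5 in monocytes of library 1 has no point because its bottom tercile held 0 UMIs.

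The share of cells with a UMI of Tap1 was also compared at matched depth. After each cell was thinned to 1000 UMIs, Tap1 was seen in 6.04% of monocytes in library 1 (16 of 265 cells) and 29% in library 2 (93 of 321), against 38.9% and 84.4% without thinning. In dendritic cells it was seen in 28.2% and 57.1%, and in neutrophils in 2.47% (2 of 81) and 31.7% (360 of 1137); 289 neutrophils of library 2 with fewer UMIs were left out. H2-D1 was seen in 83.9% to 100% of cells in every type and library. As a gauge of free RNA, C1qb was seen in 3.7% and 5.72% of neutrophils and in 79.3% of C1q macrophages in both libraries, although the gates hold C1qb low in neutrophils. This gauge sets no background for Tap1, which was far less abundant. C1q macrophages of library 1 held a mean of 3.49 C1qb and 0.0483 Tap1 UMIs per thinned cell. Whether the Tap1 UMIs in neutrophils of library 1 were free RNA was not tested.

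Of 41 other genes of the class I pathway that were found, 40 passed the filter on low counts, and heavy chains were among the 3 with the largest differences in each of the 6 comparisons. Against C1q macrophages, neutrophils had 12 higher and 12 lower, dendritic cells 12 and 2, monocytes 0 and 2, intermediate cells 0 and 2 and resident macrophages 5 and 1; against monocytes, neutrophils had 14 and 14. Of all genes, the shares higher and lower were 25.8% and 28.7%, 9.43% and 8.37%, 1.16% and 1.75%, 0.301% and 0.502%, 5.23% and 3.12%, and 25.5% and 27.1%, in the same order. H2-Q10, a heavy chain best known as a soluble liver product, stood at 298.6 and 654 CPM in neutrophils and at no more than 35.78 in the 5 other types. Its log2 fold change in neutrophils was 6.01 against C1q macrophages (SE 0.41, adjusted p = 6.72e-09) and 4.47 against monocytes (SE 0.34, adjusted p = 2.14e-08, edgeR). The next in size against C1q macrophages were Ciita, the class II transactivator (-3.51), and Irf8, a transcription factor of monocytes and dendritic cells (-3.27), and against monocytes H2-Q6 (3.58) and Irf8 (-3.14).

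In dendritic cells the 3 largest were Ciita (3.32, SE 0.45), H2-Q6 (3.23, SE 0.30) and Cd1d1 (3.05, SE 0.47), the last encoding the lipid-presenting CD1d; all had adjusted p of at most 0.000171. H2-Q6 stood at 75.17 and 390.8 CPM in dendritic cells and at 4.416 and 54.91 in C1q macrophages. Monocytes and intermediate cells each had 2 genes past the threshold, H2-Q6 (-2.27 and -2.19) and H2-Q7 (-1.54 and -1.69), both lower than in C1q macrophages. In resident macrophages Rab27a (2.51), Cybb (2.48), the catalytic subunit of the phagocyte oxidase, and Cd1d1 (2.26) were higher. By function, 3 of 6 chaperones of peptide loading were lower in neutrophils than in C1q macrophages and 5 of 6 lower than in monocytes, with none higher. Among them were calreticulin (Calr, -1.75 against C1q macrophages) and Pdia3 (-1.71), partners of tapasin in the loading complex, while Tapbp was higher. In dendritic cells 1 of the 6 chaperones was called higher and none lower, and of 8 tested heavy chains 5 were higher. Of the 13 type I interferon genes, 10 were higher and 2 lower in neutrophils than in C1q macrophages, and 2 were higher and none lower in dendritic cells. Of the 16 interferon gamma genes, 10 were higher and 4 lower in neutrophils, and 7 higher and none lower in dendritic cells.

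The genes most like the 10 across the 12 sums (6 cell types by 2 libraries) were found by Pearson's r of log2(CPM + 1) among 7406 genes with at least 200 UMIs. The points share libraries and depths, so r is a description. For the summed H2-K1, H2-D1 and B2m these were H2-Q7 (r = 0.939), H2-T22 (0.936), Hp1bp3 (0.896), Stk10 (0.889) and H2-Q4 (0.881), of which 3 are further class I heavy chains whose reads may be shared. For the summed Tap1, Tap2, Psmb8 and Psmb9 they were Parp9 (0.974), Psme2b (0.964), Ube2l6 (0.964), Xaf1 (0.948) and Epsti1 (0.946).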

How the data were processed

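The authors deposited UMI counts per gene and cell barcode for 2 libraries, unscaled; per the submitters' processing notes Cell Ranger 3.0.1 and build mm10 were used, and the annotation release is not given in the sources used here. The 10 genes, the gene lists and the tests were chosen with earlier results of these data known. Cells with at least 300 genes and at most 10% mitochondrial UMIs were gated on marker UMIs per 10000; the cuts were set on marker sums alone. Cells past 2 gates were left out as possible doublets (10 and 162 cells), with exceptions added once the marker sums were seen: neutrophils, T or NK cells and resident macrophages could pass the monocyte gate, resident macrophages also the C1q gate, and B cells the plasmacytoid gate. Many cells lie near a cut (in library 2, 208 within 1.5-fold below and 207 within 1.5-fold above the C1q cut). Depth was 11543829 and 20322996 UMIs. Counts were summed per library and cell type with at least 20 cells in both, and tested in edgeR 4.0.16 (quasi-likelihood, TMM, filterByExpr, library as a block, since each type is drawn from the same 2 libraries; Benjamini-Hochberg over 8968 genes, threshold 0.05), tested on simulated data first. Library ratios used totals, with 0.5 UMIs added for counts past 2-fold; intervals are exact at 95%. DESeq2 1.42.0, other scalings, filters, gates, thinning and leaving out a library were alternatives. Named genes were the 10 genes, the 3 called pathway genes of largest fold change per comparison, and the 5 most alike; genes shown as examples of lists beyond that were chosen after their values were seen. H2-T10 and Mx2 were not analysed here. With library as a block, p-values measure how far the differences between cell types varied between these 2 libraries. They do not measure the difference between the libraries, which the block takes out. That variation was estimated over all cell types in 1 fit and may be technical. Fewer cells of a subtype and less RNA per cell cannot be told apart in the sums.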

Additional observations from a re-analysis of the deposited data

How the results depend on the processing

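The library block decided most calls. Without the replicate block, that is without pairing cell types by library, 0 of the 10 genes passed in any comparison, where 6 had passed for neutrophils against C1q macrophages, 6 for dendritic cells against C1q macrophages and 6 for neutrophils against monocytes. With library totals in place of TMM, 3 passed for neutrophils against C1q macrophages and 3 against monocytes. With library 2 limited to its BC2 side, 0 passed in both neutrophil comparisons. For resident macrophages against C1q macrophages, with 0 called, 1 passed with DESeq2, 2 with DESeq2 size factors, 2 with library totals, 4 without a filter on low counts, 3 with gate cuts doubled and 2 with cells thinned to 1000 UMIs. All other alternatives that could be run kept each count of called genes within 1.5 times.
The median share of cells with a UMI of one of the genes went from 28% to 15.1% when cells were thinned to 500 in place of 1000 UMIs. In dendritic cells 2 genes, not 5, were at least 2-fold higher in library 2 with TMM scaling.

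Directions changed as follows, in log2 fold change; monocytes, intermediate and resident cells are against C1q macrophages. With library totals, B2m (-0.52) and Psmb8 (-0.46) turned in neutrophils against C1q macrophages, and H2-K1 (-0.05) and Psmb8 (-0.41) against monocytes. With the BC2 side, B2m (-0.58), Tap1 (-0.26), Psmb8 (-0.47) and Nlrc5 (-1.13) turned in neutrophils against C1q macrophages, and H2-K1 (-0.23), Tap1 (-0.25), Tap2 (-0.12), Psmb8 (-0.45) and Nlrc5 (-0.73) against monocytes. With gate cuts doubled, H2-K1 turned in neutrophils against C1q macrophages (0.17), Tap1 in monocytes (0.05), and H2-T23 (-0.01) and Tap1 (0.02) in intermediate cells. Without the replicate block, H2-K1 in neutrophils against C1q macrophages (0.04) and Tap1 in monocytes (0.07) turned. Without a filter, Tap1 (0.03) and Psmb8 (0.02) in monocytes and Tap2 in intermediate cells (0.03) turned. Thinned, Tap1 (0.23), Psmb8 (0.03) and Psmb9 (0.11) in monocytes, H2-T23 (-0.08) and Tap2 (0.13) in intermediate cells and H2-T23 in resident macrophages (-2.80) turned. Without cells over 25000 UMIs, an alternative chosen after seeing the data, Tap1 (0.05), Psmb8 (0.07) and Psmb9 (0.09) in monocytes and Tap2 (0.06) and Nlrc5 (-0.07) in intermediate cells turned. With DESeq2, H2-T23 (-0.02) and Nlrc5 (-0.11), and with its size factors Nlrc5 (-0.01), turned in intermediate cells. Of the 36 turned values only those of Tap2 and Nlrc5 in neutrophils, on the BC2 side, belonged to called genes; their causes were not tested. In single libraries Tap2 in neutrophils ran from -0.00 to 1.22 against C1q macrophages and from -0.47 to 1.21 against monocytes, and Nlrc5 from -1.61 to 1.86 and from -0.18 to 1.72, the lowest always in library 1, whose 81 neutrophils limit both. Of 564 tested values under alternatives, 462 kept direction and side of the threshold. Gates at 0.5 of the cuts left too few cells for all but neutrophils against monocytes; doubled cuts left no dendritic comparison, and the BC2 side neither dendritic nor resident cells.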
